A study of Mus musculus with 4 samples.

Results

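Mice had been given diethylnitrosamine (DEN), a carcinogen that starts tumours in the liver, and their livers were compared between a diet with 0.2% cholic acid (CA) and a control diet. The comparison is the array of the DEN mice on the CA diet minus the array of the DEN mice on the control diet, chosen by their titles, so it uses 2 of the 4 arrays of the series. The other 2 arrays hold livers of mice without DEN on the CA diet and on the control diet. They are given beside many of the results, but not all. All mice were 10 months old, and each array held RNA from the pooled livers of 3 to 5 mice. The labels used here do not name the strain, the sex, the DEN dose, the length of the diet or the amount of tumour in each pool, although the series title refers to tumours. Because each group was 1 pool on 1 array, no difference had a replicate check, no test was made, and the variation between mice cannot be told apart from the diets. All 18194 named genes were compared, and 11651 of them counted as expressed, with a 4-array mean of at least 4.855 on the log2 scale, which is the median of all probe sets.

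Cholic acid is a primary bile acid made in hepatocytes from cholesterol. Bile acids that return to the liver act on the nuclear receptor FXR and, through it and through intestinal hormones, hold down the cytochromes that make more bile acid. Cholesterol held in the cell keeps the transcription factor SREBP2 from reaching the nucleus, and the genes of sterol synthesis are its best known targets. Bile acids given after a carcinogen have been used in rodents as tumour promoters.

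On the CA diet after DEN, 31 expressed genes (0.266%) were higher by 2-fold or more, and 55 (0.472%) were lower by as much. At 1.5-fold, 156 genes were higher (1.34%) and 206 lower (1.77%). With levels under 4.855 raised to it, the 2-fold counts were 30 and 50, without Lhx6 among the higher and without Lipg, Slc8a1, Nrg4, Olig1 and Cidea among the lower genes. Genes of bile acid and sterol synthesis led the lower genes, with the bile acid cytochromes Cyp8b1 and Cyp7a1 furthest down and 13 of 19 enzymes of cholesterol synthesis past 2-fold. The higher genes were more mixed and included secreted and brush border proteins of epithelia, inhibitors of cytokine receptors and macrophage and interferon genes. Of all expressed genes 44.7% were above 0 and 54.9% below it, the median difference was -0.02, and the central 95% of genes lay between -0.51 and 0.47 on the log2 scale. The 18 probe sets of the hybridization controls, RNAs added to the hybridization mix, differed by at most 0.267 between these arrays. The 24 probe sets of the poly-A controls were all lower on the CA diet array, by -0.59 to -0.12, and the part of labelling in the gene differences was not tested. Pairs of expressed probe sets of the same gene gave differences that lay apart by a median of 0.137 and, in 95% of 7821 pairs, by at most 0.470. This is a spread within the same arrays and says nothing of the spread between pools.

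**Figure D1:**
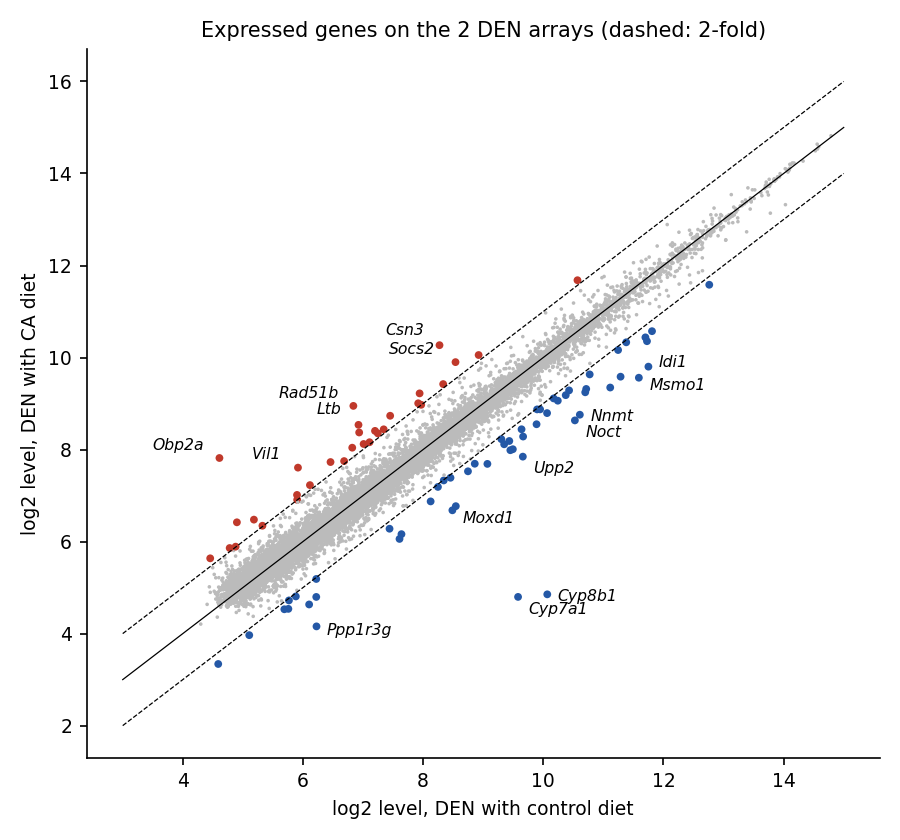
Log2 level of each expressed gene in DEN mice on the control diet (horizontal axis) and on the CA diet (vertical axis), 1 array each; red points are higher and blue points lower by 2-fold or more on the CA diet, and the dashed lines mark 2-fold. Most of the 11651 genes lie near the diagonal, while Cyp8b1 and Cyp7a1 lie furthest below it and Obp2a furthest above.

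Levels below are log2 values, first without DEN on the control and the CA diet and then after DEN on the control and the CA diet, and differences are the CA diet minus the control diet after DEN on the log2 scale unless stated. Where a level lay under 4.855, which is close to the background of the array, the fold used 4.855 in its place and is written as "at least". The differences themselves, and the counts of genes past a fold, use the values as deposited. Other expressed probe sets are given for genes described with 4 levels where they differ by over 0.267 from the one used, and for some further genes. Where a list count has no share of all expressed genes beside it, the shares given above apply.

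The hydroxylases Cyp8b1 and Cyp7a1 of bile acid synthesis had the largest differences of all expressed genes. Cyp8b1, the sterol 12-alpha-hydroxylase that directs synthesis towards cholic acid, read 11.32, 4.55, 10.07 and 4.85, lower on the CA diet array after DEN by at least 37.0-fold. Cyp7a1, the rate-limiting cholesterol 7-alpha-hydroxylase, read 10.50, 7.59, 9.58 and 4.80, at least 26.4-fold lower. Both genes were thus high on the control diet arrays and near the background on the CA diet array after DEN. The second probe set of Cyp7a1 differed by -3.70 after DEN and by -3.17 without it, beside -4.78 and -2.91 on the probe set used. On the CA diet array after DEN both probe sets lay under 4.855. On the probe set used, the bound of at least 26.4-fold after DEN was larger than the 7.54-fold difference without DEN. On the second probe set no order of the differences with and without DEN can be read. Among the 17 expressed genes of synthesis and conjugation no other was 2-fold lower, and the list median was -0.20. Cyp7b1, the oxysterol hydroxylase of the alternative pathway, read 13.10, 12.66, 12.05 and 11.46 (-0.59), and Cyp27a1, the sterol 27-hydroxylase, read 11.55, 11.23, 10.64 and 10.30 (-0.33). Slc27a5 and Baat, which join bile acids to coenzyme A and to taurine, differed by -0.25 and -0.20.

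The list of receptors and FXR targets lay near 0. None of 17 expressed members was 1.5-fold different, and the median was -0.07. Slc51b, given with the transporters below, is not in this list, so these values cover only the targets listed. Nr0b2, the repressor SHP that FXR induces, read 8.22, 9.09, 8.53 and 8.86 (0.34), and Nr1h4, the FXR gene, differed by -0.38. The 18 expressed transporters had a median of 0.22, with 4 at least 1.5-fold higher and 1 lower. Abcg5, which with Abcg8 exports sterols into bile, read 9.28, 10.71, 9.66 and 10.45 (0.80), and Abcg8 differed by 0.70. Slc51b, a subunit of the exporter of bile acids into blood, read 5.52, 6.22, 6.20 and 7.14 (0.93). These 3 exporters were higher on the CA diet in both pairs of arrays. Slco1a4, an uptake transporter of organic anions, read 9.49, 9.17, 8.46 and 7.39, 2.10-fold lower after DEN, and Slc10a1, the sodium-dependent importer of bile acids, differed by -0.51.

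Among the gene lists, those of cholesterol synthesis had the most genes that were lower by 2-fold or more. Of 10 expressed genes of the mevalonate and early sterol steps 7 were at least 2-fold lower, and of 9 genes of the late steps 6 were, against 0.472% of all expressed genes. The list medians were -1.18 and -1.19, and 17 of the 19 genes were at least 1.5-fold lower. The promoters below show how sequence and difference stood side by side in 4 genes that were over 2-fold lower and in 2 of the same lists that were not. They are 100 bases each before the start of the gene in RefSeq (GRCm38.p6), written 5′ to 3′ on the strand of the gene, with an SREBP element (TCACNCCAC) or a CCAAT box, the site of the factor NF-Y, in capitals on either strand. For Hmgcs1, which makes HMG-CoA, the stretch (chr13:119690168-119690267, plus strand) runs from 183 to 84 bases before the start, and for the other genes it runs from 100 bases to 1 base before it. Idi1 (chr13:8885506-8885605, plus strand) encodes the isomerase of isopentenyl diphosphate, and Msmo1 (chr8:64733579-64733678, minus strand) and Hsd17b7 (chr1:169969206-169969305, minus strand) encode enzymes that take methyl groups off the sterol ring. Ggps1 (chr13:14063489-14063588, minus strand), which makes a side branch of the pathway, and Lbr (chr1:181842402-181842501, minus strand), a sterol reductase and lamin receptor, are the members that did not differ.
Hmgcs1: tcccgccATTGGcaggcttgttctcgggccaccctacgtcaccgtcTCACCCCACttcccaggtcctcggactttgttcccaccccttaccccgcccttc
Idi1: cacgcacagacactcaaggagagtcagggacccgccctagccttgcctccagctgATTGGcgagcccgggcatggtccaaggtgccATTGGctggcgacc
Msmo1: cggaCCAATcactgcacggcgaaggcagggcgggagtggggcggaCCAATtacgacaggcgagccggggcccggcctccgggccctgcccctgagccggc
Hsd17b7: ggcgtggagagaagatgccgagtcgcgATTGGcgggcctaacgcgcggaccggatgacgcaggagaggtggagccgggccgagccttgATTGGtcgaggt
Ggps1: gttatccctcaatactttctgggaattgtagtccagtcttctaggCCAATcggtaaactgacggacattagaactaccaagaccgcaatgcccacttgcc
Lbr: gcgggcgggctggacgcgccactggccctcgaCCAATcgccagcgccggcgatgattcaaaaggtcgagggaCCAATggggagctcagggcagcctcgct

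Promoters of 250 bases before to 50 after a start were found for 16 of the 19 genes, 19 promoters in all. The SREBP element stood in 1 of them, that of Hmgcs1, and in 1.24% of 32851 mouse promoters of the same length. CCAAT boxes stood in a promoter of all 16 genes and in 84.2% of the 19 promoters, against 37.4% of all promoters. Both motifs were found in 0.441% of all promoters. The element in Hmgcs1 overlaps no CCAAT box, and the matches describe letters in this window only. For SREBP only the pattern TCACNCCAC was searched, so sites with other letters are not counted. Ggps1 and Lbr hold CCAAT boxes as the lower genes do, so among these genes the box did not separate those with a difference from those without.

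By step of the pathway, the largest difference of the early steps was at Idi1, which read 11.97, 8.79, 11.75 and 9.80, 3.86-fold lower (-1.95). Its other probe set gave -2.13. Fdps, the farnesyl diphosphate synthase, read 11.14, 7.78, 11.11 and 9.35, 3.40-fold lower. Fdft1, the squalene synthase, read 11.26, 9.35, 11.29 and 9.58, 3.26-fold lower, with 3 other expressed probe sets between -1.53 and 0.02. In each of these 3 genes both CA diet arrays lay below both control diet arrays. Hmgcs1 read 12.88, 10.00, 12.76 and 11.58 (-1.18), with other probe sets from -1.69 to -1.13, and Sqle, the squalene epoxidase, read 9.87, 4.69, 10.24 and 9.06 (-1.18). Sqle was thus near the background on the CA diet without DEN and well above it on the CA diet after DEN. Lss, the lanosterol synthase, differed by -1.47, with other probe sets at -1.38 and -0.44, and Pmvk, the phosphomevalonate kinase, by -1.17. Mvk and Mvd, the kinase and decarboxylase of mevalonate, stayed short of 2-fold on the probe sets used (-0.94 and -0.87), and their other probe sets gave -0.27 and -1.60.

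In the late steps Msmo1 read 12.18, 8.51, 11.59 and 9.56, 4.08-fold lower (-2.03). Hsd17b7, the 3-ketosteroid reductase, read 9.97, 7.97, 9.66 and 8.28 (-1.38), with other expressed probe sets at -1.10 and -0.99. Both genes had their lowest level on the CA diet without DEN. Nsdhl, Tm7sf2, Cyp51 and Dhcr7, a dehydrogenase, 2 sterol reductases and the lanosterol demethylase among them, differed by -1.34, -1.27, -1.19 and -1.06. Sc5d, the lathosterol desaturase, and Ebp, the sterol isomerase, stood at -0.83 and -0.75. Ggps1 read 6.52, 6.35, 6.39 and 6.46 (0.07) and Lbr 8.01, 7.92, 8.33 and 8.30 (-0.03). With the mean over all probe sets of a gene, dim ones included, Msmo1 stood at -1.12, Fdft1 at -0.84, Fdps at -0.82 and Hsd17b7 at -0.80, the last 3 under 2-fold.

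**Figure D2:**
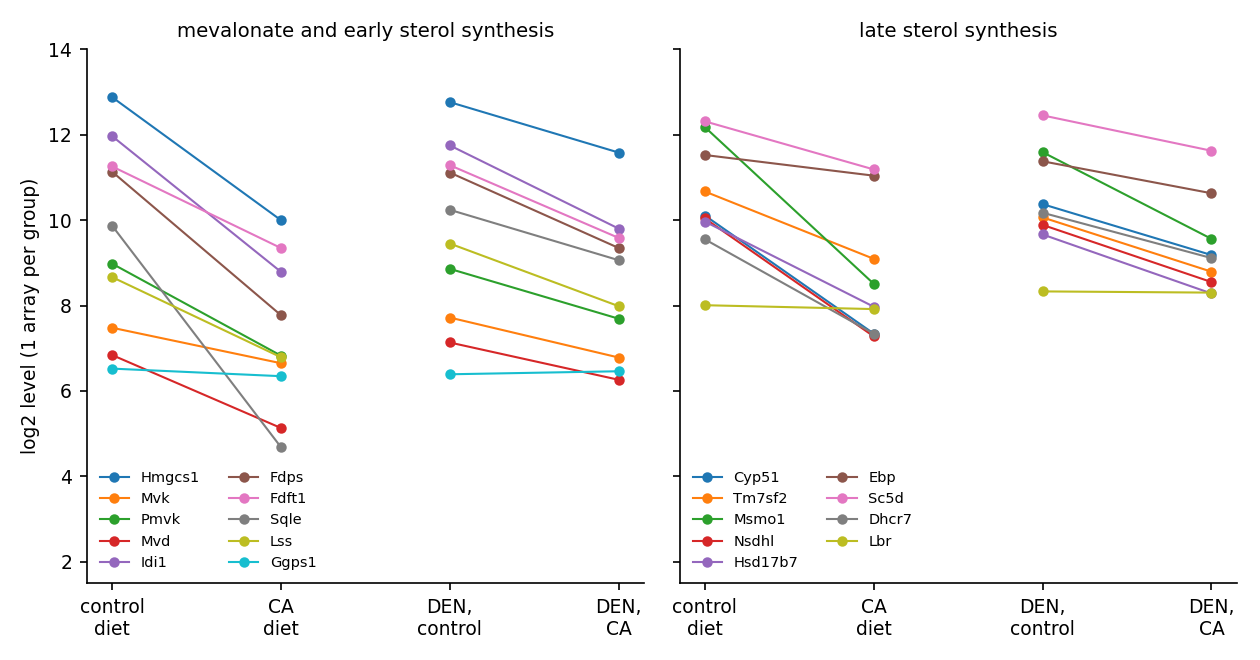
Log2 levels of the 10 mevalonate and early (left) and 9 late (right) genes of cholesterol synthesis on the 4 arrays, 1 point per array, with lines joining both diets without DEN and both diets after DEN. Most lines slope down towards the CA diet, more steeply without DEN than after it, and those of Ggps1 and Lbr are flat.

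The slope towards the CA diet was smaller after DEN in 17 of the 19 genes and larger in Mvk and Ebp. The median over the 19 genes was -1.18 after DEN and -1.99 without it, and 13 genes passed 2-fold downwards in both pairs of arrays. The control diet arrays without and with DEN were alike for most of these genes (Idi1 11.97 and 11.75, Hmgcs1 12.88 and 12.76). Some were further apart, such as Lss (8.67 and 9.45) and Dhcr7 (9.55 and 10.17). For most genes the CA diet array after DEN lay above the CA diet array without it (Idi1 8.79 and 9.80, Hmgcs1 10.00 and 11.58). Tm7sf2 went the other way (9.09 without DEN and 8.79 after it). The genes that regulate the pathway differed less. Of 13 expressed genes of SREBP control, uptake and esterification 2 were at least 1.5-fold lower, Stard4 (-0.81), a sterol carrier, and Tmem97 (-0.72), a sterol-regulated receptor. Insig1, which retains SREBP in the endoplasmic reticulum and is itself induced by it, read 11.65, 10.75, 11.35 and 10.84 (-0.51). Srebf2, the gene of SREBP2, differed by -0.22 after DEN and -0.37 without it, and its other probe set by -0.76 and -1.06. Srebf1, the gene of the lipogenic SREBP1, stood on the other side (10.28, 10.96, 10.23 and 10.66, 0.43).

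Genes next to these pathways in lipid metabolism were lower to a lesser degree. Of 12 expressed genes of fatty acid synthesis 11 were below 0, 4 of them by at least 1.5-fold and 2 by at least 2-fold (median -0.44). The shares of all expressed genes were 54.9%, 1.77% and 0.472%. Thrsp, a lipogenic nuclear protein, read 12.58, 12.61, 10.70 and 9.24, 2.74-fold lower. Acss2, the acetyl-CoA synthetase that SREBP targets, read 11.39, 9.61, 10.71 and 9.32, 2.63-fold lower. Acss2 was lower on the CA diet in both pairs of arrays, whereas the diets without DEN read alike for Thrsp. The other probe sets of Thrsp gave -1.22 and 0.16. Acly, the ATP citrate lyase, and Fasn, the fatty acid synthase, stood at -0.65 and -0.60, and Elovl6, a fatty acid elongase, at -0.82. Scd1, the main hepatic desaturase, was at 14.15 and 14.23 on the DEN arrays.

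Of 21 expressed genes of triglyceride synthesis and lipid droplets 18 were below 0, 5 of them by at least 1.5-fold (median -0.37). The shares of all expressed genes were 54.9% and 1.77%. Lpin1, a phosphatidate phosphatase and coactivator, read 11.10, 11.71, 9.95 and 8.87, 2.10-fold lower after DEN and higher on the CA diet without it. Cidea, a lipid droplet protein, was at least 1.88-fold lower. Of 18 targets of PPAR alpha, the receptor of fatty acids, 3 were at least 1.5-fold lower and none higher by that much. Cyp4a14, a fatty acid omega-hydroxylase, read 8.92, 7.55, 9.35 and 8.11 (-1.23), and Angptl4, an inhibitor of lipoprotein lipase, read 10.42, 10.50, 9.64 and 8.44 (-1.20). The first was lower on both CA diet arrays and the second on the CA diet array after DEN. None of 15 expressed apolipoprotein and lipoprotein assembly genes was 1.5-fold different.

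Several enzymes of one-carbon and amino acid metabolism were also lower. Of 17 expressed one-carbon, methionine and taurine genes 16 were below 0 and 7 were at least 1.5-fold lower (median -0.49). The shares of all expressed genes were 54.9% and 1.77%. Nnmt, the nicotinamide methyltransferase, read 10.83, 9.99, 10.61 and 8.76, 3.61-fold lower. Csad, which makes the taurine joined to bile acids, read 10.71, 8.71, 10.77 and 9.63, 2.20-fold lower. Mat1a, Bhmt, Gnmt and Ahcy, 4 abundant enzymes of the hepatic methionine cycle, differed by -0.74, -0.71, -0.65 and -0.64. Amino acid enzymes from other lists were chosen as examples after their values were seen. Tat, the tyrosine aminotransferase induced by glucocorticoids, read 12.26, 12.22, 11.81 and 10.57, 2.36-fold lower. Oat, the ornithine aminotransferase of pericentral hepatocytes, read 12.44, 11.63, 11.73 and 10.36, 2.59-fold lower. Asns, the asparagine synthetase, read 7.27, 4.54, 9.07 and 7.69 (-1.38), and Got1, the cytosolic aspartate aminotransferase, stood at -1.14. The list of ER stress and amino acid response genes that holds Asns was split, with 10 of 20 above 0 and a median of 0.005. Its only members at least 1.5-fold higher were Trib3 and Atf3 (0.85 and 0.69). All of these enzymes had their lowest level on the CA diet array after DEN except Csad and Asns, which were lowest on the CA diet without DEN. Of the other hepatic enzymes, 1 of 16 periportal and urea cycle genes was at least 1.5-fold lower, the argininosuccinate lyase gene Asl (-0.90), and 1 higher, the cathepsin gene Ctsc (0.76). Pck1, the enzyme that commits to gluconeogenesis, differed by 0.04.

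Hepatocyte identity genes as such did not follow. The 13 expressed hepatocyte markers had a median of -0.01, Tat alone among them was past 1.5-fold, and their summed log2 levels were 175.8, 176.6, 175.0 and 173.2 on the 4 arrays. Alb, the albumin gene, read 14.75, 14.74, 14.79 and 14.82, and Hnf4a, a hepatocyte transcription factor, differed by 0.03. In pooled tissue, fewer cells of a type and less RNA per cell cannot be told apart. Of 31 genes of oxidative phosphorylation 27 were below 0, against 54.9% of all genes, with a median of -0.12 and none 1.5-fold different, and 20 ribosomal protein genes had a median of -0.04.

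2 genes with a strong daily rhythm were among those furthest down. Noct, the rhythmic phosphatase nocturnin, read 9.60, 9.52, 10.53 and 8.63, 3.71-fold lower. Upp2, a uridine phosphorylase, read 11.91, 11.91, 9.66 and 7.85, 3.52-fold lower, with other probe sets at -1.84 and -0.14. Both read alike on the diets without DEN. The core clock genes differed less. Of 20 expressed clock genes none but these was 1.5-fold different, and Arntl stood at 0.02, Dbp at -0.16, Nr1d1 at -0.15 and Per1 at -0.40. The labels used here do not name the time of day at which livers were taken. Ppp1r3g, a phosphatase subunit that binds glycogen, read 6.49, 5.37, 6.23 and 4.16, at least 2.58-fold lower.

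Negative regulators of growth hormone and cytokine signals differed in both directions. Bcl6, a repressor that growth hormone lowers in liver, read 8.96, 8.15, 8.54 and 6.77, 3.42-fold lower, although its other probe set gave -0.37. Socs2 read 7.34, 8.50, 8.54 and 9.90, 2.57-fold higher, and Cish read 7.11, 8.13, 7.20 and 8.41, 2.31-fold higher. Both encode SOCS proteins that STAT5 induces and that damp the receptor, and the second expressed probe set of Socs2 gave 1.09. Both were higher on the CA diet in each pair of arrays. Socs3, the SOCS gene of interleukin 6 signals, stood at 0.72 (other probe sets 0.21 and 0.49) and Onecut1, a liver transcription factor, at 0.89 (other probe set 0.32). Of 13 expressed genes of growth hormone, STAT and SOCS, 2 were past 2-fold upwards and 1 downwards. Igf1, the growth factor that growth hormone induces, stood at -0.29, and Igfbp3, a carrier of that factor, read 7.03, 6.93, 8.34 and 7.33 (-1.01). Of 11 male-biased genes 9 were below 0, against 54.9% of all genes, and 1 was at least 1.5-fold lower and none higher. Xist, transcribed in female cells, was under 4.855 on all 4 arrays.

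Genes of secreted and brush border proteins of epithelia had several of the largest differences upwards. Of 18 expressed members of that list 5 were at least 2-fold higher and 1 lower, against 0.266% and 0.472% of all genes (median 0.26). The list was put together with these genes known to be high, so its count is a description only. Obp2a, a lipocalin, read 5.16, 7.34, 4.61 and 7.82, at least 7.79-fold higher. Csn3, kappa-casein, read 4.09, 3.74, 8.27 and 10.27, 3.99-fold higher. Obp2a was high on both CA diet arrays, whereas Csn3 was high on both DEN arrays and highest with the CA diet. Vil1, the actin bundler villin of microvilli, read 4.41, 4.34, 5.92 and 7.61, 3.23-fold higher. Anxa13, an annexin of epithelial membranes, read 4.13, 4.70, 4.90 and 6.42, 2.87-fold higher, and Wfdc12, a secreted protease inhibitor, read 5.86, 5.34, 6.94 and 8.37, 2.70-fold higher. These 3 had their highest level on the CA diet array after DEN. Tff3, a trefoil peptide of mucous surfaces, went the other way among the DEN arrays (6.34, 6.45, 11.70 and 10.44, 2.40-fold lower), as did the cadherin gene Cdh17 of intestinal epithelium (3.31, 3.18, 8.25 and 7.19, 2.08-fold lower).

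Markers of intestinal and gallbladder epithelium were looked at beside these genes. Of 14 measured markers 7 were under 4.855 on all 4 arrays, among them the intestinal transcription factors Cdx1 and Cdx2 and the mucin gene Muc2. The 7 expressed ones had a median of 0.11, and their summed log2 levels were 58.1, 58.3, 58.7 and 60.4. Vil1 is itself 1 of these 7, and its difference of 1.69 makes up most of that between the last sums. Cholangiocyte markers had a median of 0.27 over 6 expressed genes, 5 of them above 0, with sums of 34.1, 35.0, 42.8 and 44.3. The largest difference among them was at Sox9 (0.58), whose other expressed probe set gave -0.17. Krt7 and Krt19, keratins that define bile ducts, did not count as expressed. The part of such cells in the levels of Vil1, Anxa13, Csn3 and Wfdc12 was not tested.

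**Figure D3:**
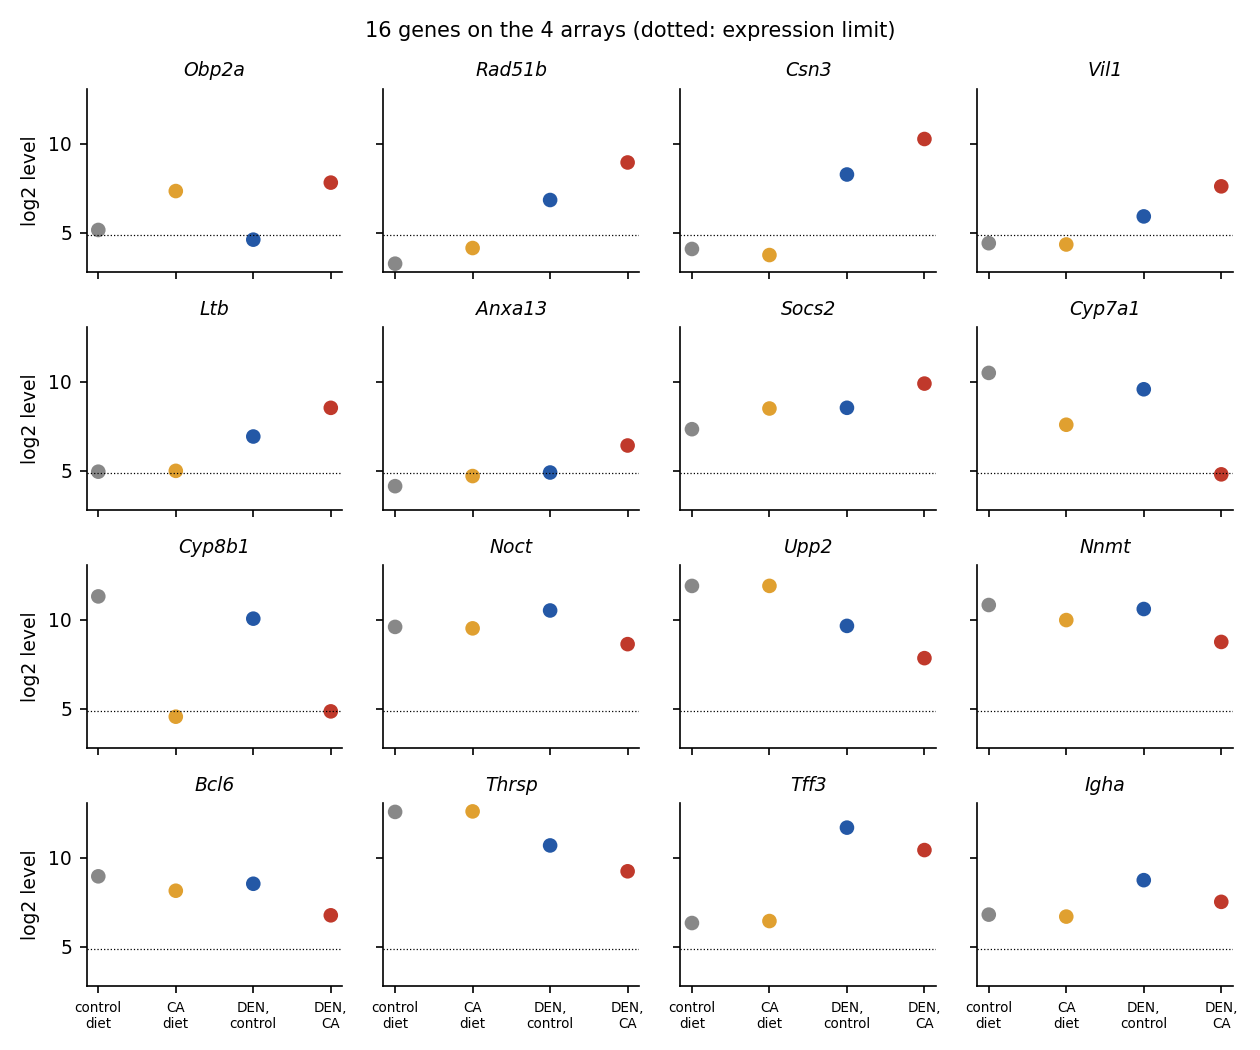
Log2 levels of 16 genes on the 4 arrays, 1 point per array, with the expression limit of 4.855 dotted. Cyp7a1 and Cyp8b1 reach the limit on the CA diet array after DEN, Csn3 and Vil1 are highest there, and Tff3 and Igha are high on both DEN arrays and lower with the CA diet.

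Further genes higher on the CA diet after DEN had other roles. Rad51b, a gene of recombination repair, read 3.26, 4.14, 6.84 and 8.95, 4.32-fold higher, while its other probe set, not expressed, gave -0.38. With the mean over both, Rad51b stood at 0.86. Inhbb, the activin B subunit, read 5.02, 5.36, 8.92 and 10.05, 2.19-fold higher, while its other probe set gave 0.05. For both genes the difference thus rests on 1 probe set. Cyp26a1, which breaks down retinoic acid, read 8.03, 8.47, 7.45 and 8.73, 2.43-fold higher. Ptgds, the prostaglandin D synthase, read 6.72, 8.31, 6.46 and 7.73, 2.41-fold higher, with its other probe set at 1.36. Hsd17b6, a steroid dehydrogenase, read 9.46, 11.39, 10.57 and 11.68, 2.16-fold higher. The latter 2 were higher on the CA diet in both pairs of arrays.

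Immune genes were mostly higher. Of 31 expressed interferon response genes 29 were above 0, 10 of them past 1.5-fold, and none was 1.5-fold lower (median 0.31), against 44.7% of all genes above 0 and 1.34% past 1.5-fold. Ifi27l2a read 6.18, 7.37, 7.11 and 8.16, 2.07-fold higher, and Bst2, which tethers viruses to the cell, read 8.52, 9.83, 8.97 and 9.87 (0.90). Usp18 and Irf7, a protease and a transcription factor of the response, stood at 0.81 and 0.61. These 4 genes were higher on the CA diet in both pairs of arrays. Ltb, lymphotoxin beta, read 4.95, 4.99, 6.92 and 8.54, 3.06-fold higher after DEN. Ubd, the ubiquitin-like FAT10 that cytokines induce, read 4.26, 4.66, 7.25 and 8.35, 2.15-fold higher, and Pycard, an adaptor of the inflammasome, read 5.49, 5.50, 6.12 and 7.23, 2.16-fold higher. Without DEN, Ubd was under 4.855 on both diets, and Ltb and Pycard read nearly alike. Il1b stood at 0.73, and Tnf and Il6 lay under 4.855.

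Macrophage markers were higher alongside. Of 18 expressed markers of Kupffer cells and macrophages 17 were above 0, 5 of them by at least 1.5-fold (median 0.40). The shares of all expressed genes were 44.7% and 1.34%. Summed log2 levels of the 18 markers were 129.3, 138.4, 141.5 and 149.6. Marco, Vsig4, Timd4 and Clec4f, genes of resident Kupffer cells, stood at 0.99, 0.81, 0.72 and 0.54, and the other probe set of Marco at 0.39. The only expressed marker of the list below 0 was Ccr2, the receptor of incoming monocytes (-0.36). Cybb, the phagocyte oxidase subunit, read 6.72, 7.34, 7.94 and 9.22, 2.43-fold higher, with other probe sets at 0.91 and 1.39. Cd14, the endotoxin coreceptor, read 5.29, 5.63, 8.33 and 9.42, 2.13-fold higher, and Mmp12, a macrophage elastase, read 3.96, 5.14, 5.90 and 7.01, 2.16-fold higher. In these 3 genes each CA diet array lay above the control diet array of its pair. The part of macrophage number in the interferon and inflammatory genes was not tested.

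Other leukocyte lists differed less or were low. All 5 expressed T and NK cell markers were above 0 by less than 1.5-fold (median 0.16), with sums between 29.7 and 30.8, and 6 of 15 measured ones were under 4.855 on all 4 arrays. Of 6 expressed B and plasma cell markers 5 were below 0 (median -0.27), with sums of 40.9, 41.6, 44.9 and 43.3. Igha, the immunoglobulin A constant region, read 6.81, 6.70, 8.75 and 7.53, 2.33-fold lower, and its other probe sets gave -1.39 and -0.85. Jchain, which joins secreted immunoglobulins, read 5.26, 5.87, 7.67 and 6.77 (-0.90), while Cd79a and Ms4a1, which define B cells, did not count as expressed. Igha and Jchain were thus higher on the DEN arrays than without DEN, and lower with the CA diet among them.

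Acute phase and stress genes gave mixed values. Of 26 expressed acute phase genes 6 were past 1.5-fold upwards and 2 downwards (median 0.09). Saa1, Saa2 and Saa3, serum amyloid A genes of similar sequence, stood at 0.93, 0.74 and 0.89, and Lcn2, the iron-binding lipocalin 2, at 0.83. Without DEN, Saa1 and Lcn2 differed by -0.42 and -0.47, and Saa3 by 0.36. Hamp, the iron hormone hepcidin, read 12.19, 12.45, 11.93 and 11.10 (-0.82), and Slc40a1, the iron exporter it acts on, stood at 0.67. NRF2 drives the defence against oxidants, and 19 expressed targets of it had a median of 0.41. Of these 16 were above 0, against 44.7% of all genes, and 2 were at least 1.5-fold higher, against 1.34%. Among them Nqo1, a quinone reductase, read 5.71, 5.78, 7.16 and 7.74 (0.58), and Gclc, the first enzyme of glutathione synthesis, 10.89, 11.10, 11.50 and 12.06 (0.56), both highest on the CA diet array after DEN. Of 21 immediate early genes 5 were past 1.5-fold upwards and none downwards (median 0.30), led by Fos (5.19, 9.02, 7.34 and 8.44). Fos was thus higher on both CA diet arrays, and highest without DEN.

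Tumour, growth and matrix genes had list medians near 0 with a few members apart. The 29 expressed oncofetal and tumour markers had a median near 0, with 14 above and 15 below it. At 1.5-fold 2 were higher, Lcn2 (0.83) and the reductase gene Akr1b8 (0.71), and 3 lower, Tff3 (-1.26), Bex1 (-0.77) and the trypsin inhibitor gene Spink1 (-0.68), against 1.34% and 1.77% of all genes. Afp, alpha-fetoprotein, read 4.77, 4.10, 12.65 and 12.17 (-0.48, other probe sets -0.82 and -0.53). Gpc3, the oncofetal glypican, read 4.14, 4.41, 9.80 and 9.73 (-0.07). Of 31 expressed genes of DNA replication and mitosis 1 was at least 1.5-fold higher, the helicase subunit gene Mcm6 (0.72), and 1 lower, the phosphatase gene Cdkn3 (-1.03). Their median was -0.11, and Mki67, the proliferation marker Ki-67, read 3.90, 5.32, 7.15 and 6.99 (-0.16). Without DEN the median of these 31 genes was 0.52. There 8 of them were at least 2-fold higher on the CA diet as deposited, against 0.661% of all genes. Among these, Mki67, Top2a, Ccnb2, Ube2c and Birc5 lay under the expression limit on the control diet without DEN. Their differences without DEN thus have no exact size, and that of Mki67 was 0.46 with low values raised to the limit. Cdk1 (5.08 and 6.29), Cdc20 (5.49 and 6.73) and Mcm6 (5.22 and 6.49) lay above the limit on both diets without DEN. Ccnd1, the G1 cyclin, read 7.20, 8.38, 8.91 and 8.77 (-0.14, other probe sets -0.13 and 0.16). Without DEN it differed by 1.19, with other probe sets at 1.12 and 1.03. Myc stood at -0.36. Of 17 expressed matrix proteins and proteases Mmp12 alone was past 1.5-fold. Of 18 collagen genes 1 was at least 1.5-fold lower, Col5a2 (-0.60), and 14 were below 0 (median -0.09). The shares of all expressed genes were 1.77% and 54.9%. The stellate cell and fibroblast markers had a median of -0.04 over 16 genes, with Acta2, smooth muscle actin, at -0.32. None of 20 p53 targets and none of 30 complement and coagulation genes was 1.5-fold different. Among ligands of the EGF receptor, Hbegf stood at 0.91, with its other probe set at 0.50.

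**Figure D4:**
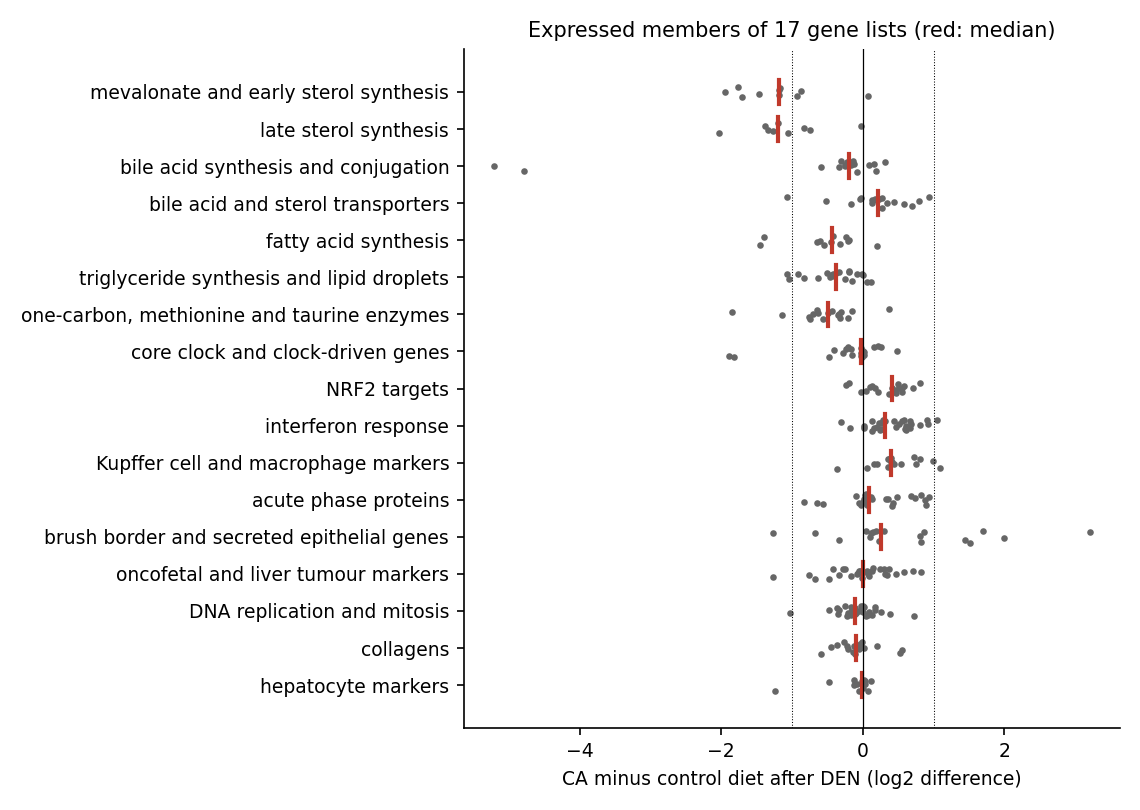
Difference of the CA diet minus the control diet after DEN (log2) for the expressed members of 17 gene lists, 1 point per gene, with the list median in red and 2-fold marked by dotted lines. Both sterol synthesis lists have medians past -1, the macrophage, NRF2 and interferon lists lie between 0.31 and 0.41, and the tumour, mitosis and collagen lists lie near 0.

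Set beside the diets without DEN, which share no array with the pair after DEN, the CA diet array again differed from its control in part of the same genes. Without DEN, the CA diet had 77 genes (0.661%) higher by 2-fold or more and 69 (0.592%) lower by as much. At 1.5-fold these were 290 (2.49%) and 206 (1.77%). Of the genes at least 2-fold lower, 28 were shared, 50.9% of the 55 after DEN and 40.6% of the 69 without it. Of those higher, 9 were shared, 29.0% of the 31 and 11.7% of the 77. None was 2-fold different in opposite directions, and at 1.5-fold 2 genes higher and 5 lower after DEN were on the other side without it. The shared lower genes held the 13 genes of cholesterol synthesis, Cyp7a1, Cyp8b1, Acss2, Csad, Asns and Cyp4a14. They also held Rdh11, a retinol reductase (9.36, 6.68, 9.43 and 8.19, other probe set -0.98), Dnase2a, a lysosomal nuclease (11.55, 9.79, 11.38 and 10.33), and Paqr9, a membrane receptor of the progestin and adiponectin receptor family (9.57, 7.67, 9.49 and 8.01, other probe set -1.10). The 9 shared higher genes were Obp2a, Socs2, Cish, Ptgds, Hsd17b6, Mmp12, Fos, Ifi27l2a and Tmem141. With levels under 4.855 raised to it, 8 higher and 27 lower genes were shared, without Mmp12, which read 3.96 on the control diet without DEN, and without Olig1.

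**Figure D5:**
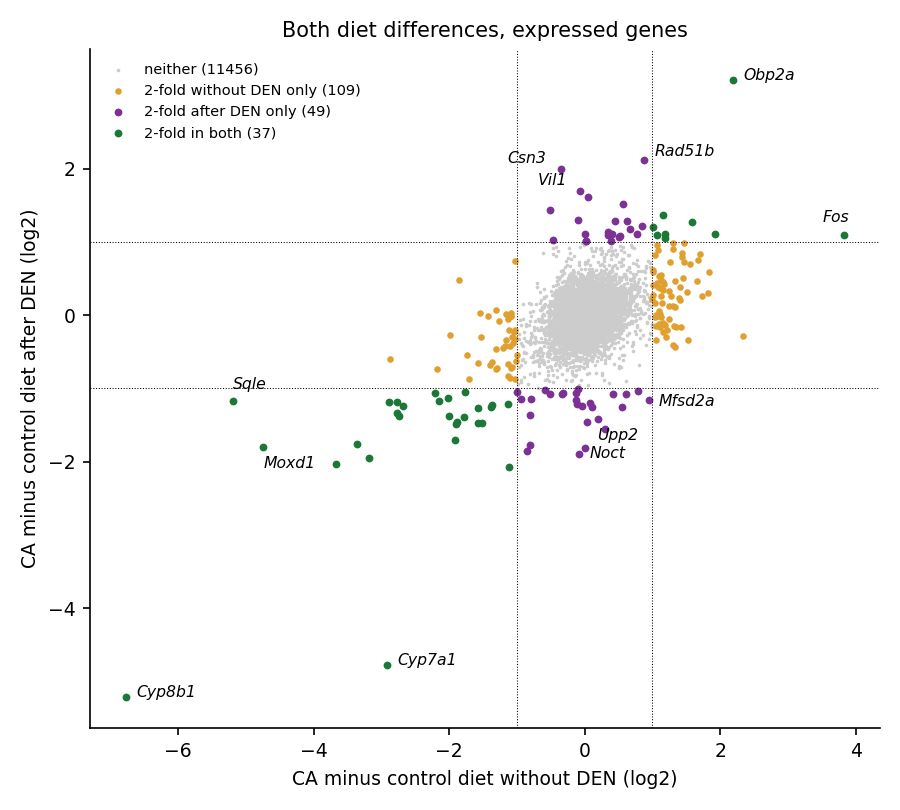
Difference of the CA diet minus the control diet without DEN (horizontal axis) and after DEN (vertical axis), log2, for 11651 expressed genes; green genes are 2-fold different in both, purple ones after DEN only and orange ones without DEN only. The green genes lie in the lower left and upper right, and Noct, Upp2, Csn3 and Vil1 lie near 0 on the horizontal axis.

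Of the 27 genes that were 2-fold lower after DEN and not without it, 11 were within 0.25 of 0 without DEN and 7 were at least 1.5-fold lower there. Noct, Upp2, Thrsp, Tat, Angptl4 and Tff3 were among the first 11. Of the 22 higher ones 6 were within 0.25 of 0 without DEN, among them Vil1, Ltb and Pycard, and 5 were at least 1.5-fold higher there. The difference between the diet differences, after DEN minus without DEN, was not tested, since it rests on 4 single arrays. With levels under 4.855 raised to it, it was largest upwards for Sqle (3.84), Orm2, an acute phase lipocalin (2.32), and Moxd1, a monooxygenase (2.29). Orm2 read 10.67, 8.82, 8.06 and 8.54, and Moxd1 read 8.95, 4.21, 8.49 and 6.68. For these 3 genes the diet difference without DEN was the larger. It was largest downwards for Fos (-2.73), Cyp2b9, a drug-metabolising cytochrome (-2.62), and Mfsd2a, a lipid transporter (-2.11). Cyp2b9 read 4.87, 7.20, 8.85 and 8.56, so the CA diet array was higher only without DEN, and Mfsd2a read 8.80, 9.74, 7.44 and 6.28.

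The calls on single genes rested on the probe sets as follows. Of the 31 higher genes 28 had both levels above 4.855, and 7 had another expressed probe set, which was on the same side in all 7 and past 1.5-fold in 6. Of the 55 lower genes 44 had both levels above it, and 22 had other expressed probe sets, which were all on the same side in 19 and all past 1.5-fold in 16. The other 24 higher and 33 lower genes rest on 1 expressed probe set each.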

How the data were processed

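Per the labels' protocols, liver RNA was extracted with Trizol and 1 µg of it was labelled by the FlashTag Biotin HSR kit. Per the submitters' processing notes, the authors used Partek 6.5 and RMA, and the deposited values are log2 levels of 45101 probe sets of an Affymetrix mouse array. RMA subtracts background, equalises the distribution of values between arrays and combines the probes of each set, so a shift shared by most genes would be lost. The notes used here give no options, and the values carry no detection call.

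Names came from the platform annotation, which gave 1 symbol to 34958 probe sets, several to 932, and listed none for 9211. RefSeq (GRCm38.p6) matched 34754 of these and changed 0 symbols. Each gene was represented by the probe set whose 4-array mean was highest. Differences were counted from 2-fold on, which is 1 on the log2 scale, with 1.5-fold as a second threshold. Calls and printed differences used the deposited values, and a printed fold against a level under the limit of 4.855 used that limit. With 1 array per group the number of arrays limits precision, and no test or p-value was made.

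The comparison, the 52 pathway lists, the 13 cell type lists and the rule for named genes were chosen with earlier results of these data known. The rule took 4 sets of genes, which gave 143 genes in all. The first was the 15 expressed genes with the largest difference each way, predicted genes left out. The others were up to 4 members of each list that differed by at least 1.5-fold, a panel of liver, tumour and inflammation genes, and the 6 genes with the largest difference between both diet differences each way. Other list members are printed as examples and were chosen after their values were seen. List medians cover expressed members. Promoters are those of RefSeq. Alternatives were other expression limits, a 1.5-fold threshold, quantile normalization, centring, loess (fraction 0.3), the mean over probe sets, each probe set alone and low values raised to the limit. Genes without a probe set of 1 symbol are not analysed here. Computations used Python 3.11.15, pandas 2.3.3, numpy 2.4.6 and statsmodels 0.14.6, and the steps were tested on simulated data.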

Additional observations from a re-analysis of the deposited data

Results flagged for a closer look

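For 4 named genes the deposited values on the CA diet went with a difference of at least 1.5-fold one way after DEN and the other way without DEN. The difference between the diet differences was not tested, since each group was 1 array. Mfsd2a, a transporter of lysophospholipids, differed by -1.16 after DEN and by 0.95 without it. Lpin1, the phosphatidate phosphatase, differed by -1.07 and 0.61. Cdkn3, a phosphatase of cyclin-dependent kinases, differed by -1.03 and 0.79, but both of its levels without DEN were under 4.855, so no difference without DEN can be read for it. Jchain, the joining chain of immunoglobulins, differed by -0.90 and 0.61.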

How the results depend on the processing

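The count of genes at least 2-fold higher after DEN (31) was 13 with the upper quartile of probe sets (6.63) as the limit, where fewer genes were counted, and 156 at 1.5-fold. The count of lower genes (55) was 206 at 1.5-fold and 90 with every probe set counted alone. The shared counts (9 higher, 28 lower) were 50 and 78 at 1.5-fold and 16 and 47 with every probe set alone. Under the other alternatives higher genes numbered 26 to 46, lower ones 43 to 63, and shared ones 7 to 11 and 25 to 29. Quantile normalization, centring (which shifted all genes by 0.04) and loess moved none of the 143 named genes by over 0.267, the largest difference of a hybridization control. The mean over probe sets, which includes dim ones, moved 24 of them and low values raised to the limit moved 1, Ppp1r3g, none with a change of sign. Of 66 lists, 5 medians moved by 0.1 or more with all measured members, 11 with the mean in place of the median and 5 with the mean over probe sets. No paired analysis was possible because each group had 1 array. Differences near the limit of 4.855 are bounded by the background of the array.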

Other observations

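Probe sets not used for a gene were also examined, and the genes named here were chosen after their values were seen. In 23 genes, 10 higher and 13 lower, another expressed probe set was past 2-fold after DEN while the one used was not. Car3, the carbonic anhydrase of male liver and of adipose tissue, read 14.25, 14.09, 13.78 and 13.14 on the probe set used, first without DEN on the control and the CA diet and then after DEN on both (-0.64 after DEN). Another probe set gave -1.45 after DEN. Of the others, 1 read 9.70, 7.19, 8.06 and 4.73 and 1 read 9.19, 6.76, 7.34 and 4.29, with the last level under 4.855 in both, so their differences after DEN have no exact size. All 4 probe sets of Car3 were thus lowest on the CA diet array after DEN. Gm2a, which encodes the activator of ganglioside breakdown, differed by -0.10 on the probe set used. Another probe set of Gm2a read 4.31, 4.16, 3.91 and 8.29, above the expression limit on the CA diet array after DEN alone. The second probe set of Mvd, the mevalonate decarboxylase, gave -1.60, past 2-fold as most genes of its pathway were. For Ighm, the immunoglobulin M constant region, another probe set gave -1.24 after DEN beside -0.35 on the one used.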
